A study of Drosophila melanogaster with 6 samples.

Results

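The heat shock genes described here are 9 genes of Drosophila melanogaster, the small heat shock protein genes Hsp22, Hsp23, Hsp26, Hsp27, Hsp67Ba and Hsp67Bc, the inducible Hsp70-type gene Hsp68, the mitochondrial chaperonin gene Hsp60A and Hsf, which encodes heat shock factor. They were read through the probesets, sets of short probes on an array, that the platform annotation assigns to one of them and to no other gene. Of the 9 genes, 5 had such a probeset, 1 each, among 18952 probesets in all: Hsp26, Hsp27, Hsp68, Hsp60A and Hsf. Hsp22 is listed on 2 probesets that it shares with CG4456, which are described as shared. Hsp23, Hsp67Ba and Hsp67Bc were not analysed here.

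Whole female third-instar larvae were measured on 6 Affymetrix Drosophila Genome 2.0 arrays, each with RNA of 50 pooled larvae. The 3 mutant arrays carried RNA of genotype roX1SMC17ADf(1)52; [w+4D4.3], which lacks both roX noncoding RNAs. The 3 control arrays carried RNA of the same genotype with a further transgene, [hsp83-roX1+], which expresses roX1 from the promoter of Hsp83, the fly Hsp90 gene. Both groups therefore lack the endogenous roX genes and carry [w+4D4.3], and neither is a wild-type line. Where the transgenes are inserted is not stated in the labels. The labels call the RNA preparations independent. The roX genes and Hsp83 were not analysed here, and the labels were not checked by their levels.

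Small heat shock proteins bind unfolded proteins and hold them until ATP-driven chaperones of the Hsp70 family refold them. Their genes are silent or weak in many unstressed tissues, and heat shock factor, which binds repeats of GAA in their promoters, switches them on after heat. In the fly, several of them, Hsp26 and Hsp27 among them, are also switched on without heat by the moulting hormone ecdysone late in larval life. The chaperonins of the mitochondrion and the cytosol enclose their clients in a ring and work in unstressed cells. The transgene of the controls uses a promoter of this same stress system, and the comparison asks whether heat shock genes differ between larvae without and with it.

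Values are log2 expression values from robust multi-array average (RMA), which brings all arrays to a common distribution, and differences are mutant minus control. The array medians lay between 5.41 and 5.45. Control replicate 1 stood apart, with a mean correlation of 0.981 with the other arrays, against 0.986 to 0.990 for the other 5. The lists of tissue markers were read as the log2 of summed linear values. Salivary gland genes (14 of 15 tested) lay between 16.88 and 16.91 in mutants and between 16.81 and 16.92 in controls. Muscle genes (14 of 21) lay between 15.69 and 16.03 in mutants and between 15.49 and 15.83 in controls. Of the 14 tested muscle genes 13 had a higher mean in mutants (median log2 change 0.16), while 52.4% of all tested probesets had a lower one. For 0 of these 14 was the unadjusted p under 0.05 (limma). Fat body genes (7 of 11) lay between 16.06 and 16.15 in mutants, above the controls at 15.92 to 16.01. All 7 had a higher mean in mutants (median log2 change 0.073). For 2 of the 7 the unadjusted p was under 0.05 (limma), against 9% of all tested probesets. Hemocyte genes (11 of 12) lay between 12.90 and 13.07 in mutants and between 13.06 and 13.31 in controls. Of the 11 tested hemocyte genes 6 had a higher mean in mutants, and the median log2 change was 0.017. Neuron genes (9 of 12) lay between 8.85 and 9.01 in mutants and between 8.95 and 9.08 in controls. Of the 9 tested neuron genes 2 had a higher mean in mutants, and the median log2 change was -0.068. Of the female germline list 3 of 9 were tested, and osk, orb, otu, piwi and zpg were below the filter on level. None of these marker genes differed at an adjusted p under 0.05 (limma); those with the smallest p included the crystal cell genes PPO2 (log2 change -0.98) and PPO1 (-0.81), Syn (-0.43) and futsch (-0.13) of neurons, Fbp1 (0.28) and Desat1 (0.43) of the fat body, ng1 (0.73, and 0.12 without control replicate 1) and Sgs3 (-0.09) of the salivary gland, Mf (0.16, and 0.081 without control replicate 1) and TpnC73F (0.15) of muscle, and bam (0.24) and Rbp9 (-0.11) of the germline. In whole larvae, fewer cells of a type and less RNA per cell cannot be told apart.

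None of the 5 heat shock genes with their own probeset differed between mutants and controls at an adjusted p under 0.05 (limma, lowest adjusted p = 0.459), against 0.551% of the 11262 probesets tested. All 5 were bright enough to be tested. At an unadjusted p under 0.05 only Hsp26 passed, against 9% of all tested probesets. The mean was higher in mutants for Hsp26, Hsp27 and Hsp68 and lower for Hsp60A and Hsf, and the median change of the 5 was 0.030, against -0.0086 over all tested probesets.

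**Figure D1:**
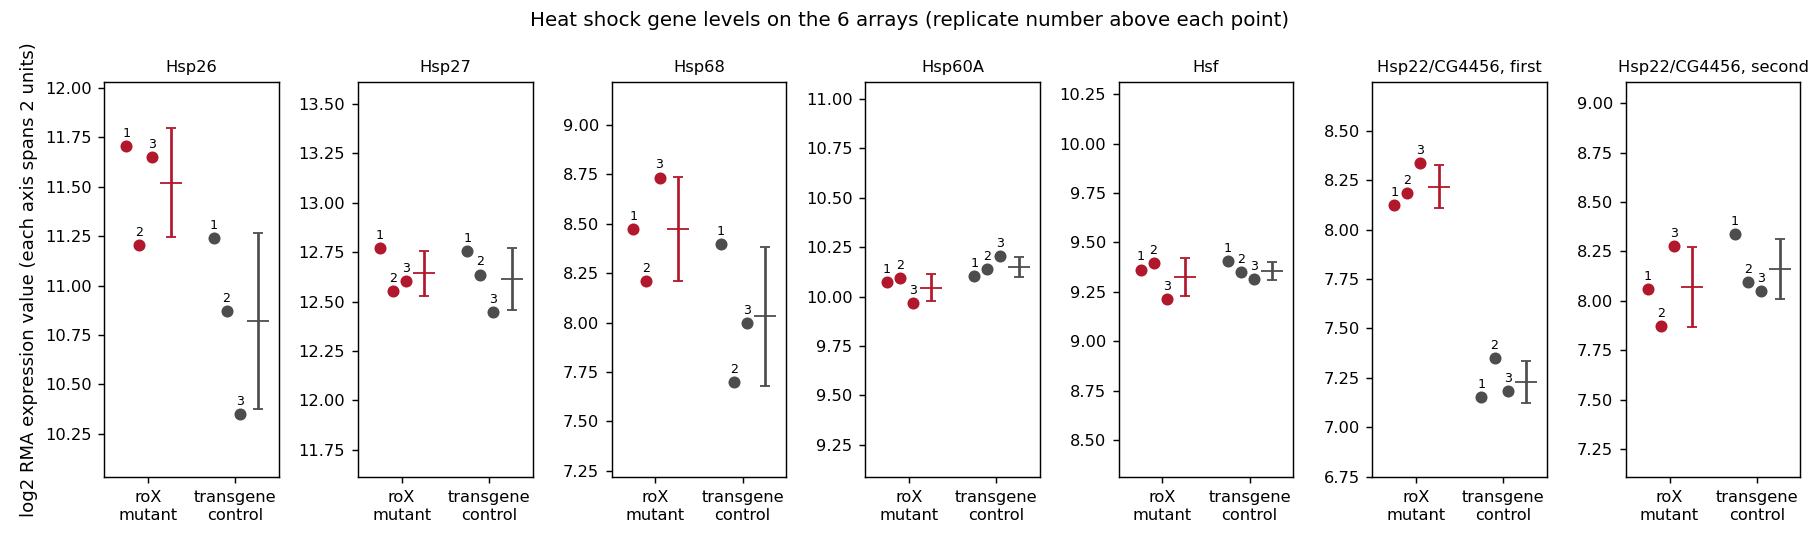
Log2 RMA expression values on each array, mutants in red left of controls in grey, with the replicate number above each point and the mean and SD (n = 3) as bars at the side; every vertical axis spans the same number of log2 units, so heights can be compared between panels and levels cannot. Hsp26 and Hsp68 overlap between the groups, Hsp27, Hsp60A and Hsf lie nearly level, and the first of the probesets shared by Hsp22 and CG4456 is 8.13 to 8.34 in mutants and 7.15 to 7.35 in controls while the second overlaps.

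Hsp26, a cytosolic small heat shock protein gene, had the largest mean difference of the 5. Its values were 11.71, 11.21 and 11.65 in mutant replicates 1, 2 and 3, against 11.24, 10.87 and 10.35 in control replicates 1, 2 and 3. Mutant replicates 1 and 3 lay above every control, and mutant replicate 2 lay just below control replicate 1, so the groups overlapped. The log2 change was 0.70 (SE 0.24, 95% interval 0.13 to 1.27), a 1.63-fold higher mean in mutants, which did not pass over all probesets (limma adjusted p = 0.459). An absolute change of this size or larger was seen in 1.67% of all tested probesets. Hsp26 also varied more than most within groups, with a pooled SD of 0.37 that was larger than that of 94.2% of tested probesets. Without control replicate 3, its lowest array, the change was 0.47, and without control replicate 1 it was 0.91 (limma adjusted p = 0.575 and 0.174).

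Hsp27, a small heat shock protein gene whose protein is found in the nucleus, lies in the same gene cluster as Hsp26 and hardly moved. It was read at 12.77, 12.55 and 12.60 in mutants and at 12.76, 12.64 and 12.45 in controls. The 2 groups covered nearly the same range. The log2 change was 0.03 (SE 0.11, limma adjusted p = 0.946), and its 95% interval, -0.23 to 0.28, leaves out a change as large as the mean difference of Hsp26. The sign of this change was not stable: it was -0.02 after another quantile normalization. Taken within each array, where scaling cancels, the Hsp26 value minus the Hsp27 value was -1.07, -1.35 and -0.95 in mutants and -1.52, -1.77 and -2.10 in controls. All 3 mutant arrays lay above all 3 control arrays in this difference (shift 0.67). An exact two-sided permutation test gave p = 0.1, the smallest it can give with 3 arrays a group (adjusted p = 0.267 over the 4 differences of Hsp26 from the other members). Hsp26 had the largest mean difference of the members read here, so the shift mostly restates its change. The adjustment does not cover the choice of Hsp26, and the test is given as a description. The other 3 differences of Hsp26, from Hsp68, Hsp60A and Hsf, overlapped between the groups (exact permutation p = 0.4, 0.2 and 0.2).

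Hsp68 encodes an Hsp70-type chaperone that is induced by heat, and it lies on 3R, away from the small heat shock genes. It was read at 8.47, 8.21 and 8.73 in mutants and at 8.40, 7.70 and 8.0 in controls. As for Hsp26, control replicate 1 lay within the mutant range and control replicates 2 and 3 lay below it. Mutants were higher by 0.44 on the log2 scale on average (SE 0.20, 95% interval -0.05 to 0.93; limma adjusted p = 0.597). Without control replicate 2 it was 0.27. Its pooled SD of 0.31 was larger than that of 92.2% of tested probesets.

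Hsf, on 2R, encodes the factor that binds the promoters of these genes. Its values were 9.36, 9.40 and 9.21 in mutants, against 9.41, 9.35 and 9.32 in controls. The groups overlapped, and mutant replicate 3 was the lowest array. Its log2 change was -0.03 (SE 0.080, limma adjusted p = 0.921), and the 95% interval of the difference ran from -0.22 to 0.16. The sign turned to 0.03 with array weights.

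Hsp60A, an X-linked gene, encodes the chaperonin that folds proteins inside mitochondria. It was read at 10.07, 10.10 and 9.97 in mutants and at 10.10, 10.14 and 10.20 in controls. Every mutant array lay below every control array, with mutant replicate 2 and control replicate 1 nearly level, and such a separation with the mutants lower was seen for 9.33% of tested probesets. This gave a log2 change of -0.10 (SE 0.074, 95% interval -0.28 to 0.07; limma adjusted p = 0.717). Hsp60A and Hsf were the steadiest of the 5, with pooled SDs of 0.061 and 0.076, against a median of 0.127 over all tested probesets.

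The probesets that the annotation lists under both Hsp22 and CG4456 disagreed with each other. Hsp22, whose protein works in the mitochondrion, and CG4456 overlap on 3L, and the annotation does not tell which of the 2 genes each probeset reads. On the first (1630487_s_at) the values were 8.13, 8.19 and 8.34 in mutants and 7.15, 7.35 and 7.18 in controls. The mutants all lay above the controls, a separation seen with the mutants higher for 7% of tested probesets, and the gap between the groups was wider than the spread within either. The log2 change was 0.99 (SE 0.093, limma adjusted p = 0.0107), a 1.98-fold rise in mutants. On the second (1629061_s_at) the values were 8.06, 7.87 and 8.28 in mutants and 8.34, 8.09 and 8.05 in controls. These overlapped, with a log2 change of -0.09 (95% interval -0.40 to 0.22; limma adjusted p = 0.862). The first minus the second, taken within each array, was 0.06, 0.31 and 0.06 in mutants and -1.18, -0.74 and -0.87 in controls (exact two-sided permutation p = 0.1, the smallest possible, on a difference chosen after the values were seen).

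The rise on the first shared probeset did not pass without mutant replicate 1 (change 1.03, limma adjusted p = 0.0519), without mutant replicate 2 (1.00, adjusted p = 0.102) or without control replicate 3 (0.96, adjusted p = 0.0606). Its size stayed between 0.93 and 1.05 under all 14 alternatives. The fat body list moved the same way, and so did an RNA quality measure: the 3' minus 5' signal of actin was 0.871 ± 0.090 in mutants and 0.721 ± 0.021 in controls (SD, n = 3 per group), for which an exact two-sided permutation test gave p = 0.1, the lowest it can give. For GAPDH the same measure was 1.38 ± 0.13 in mutants and 1.38 ± 0.033 in controls (SD, n = 3 per group). The part of either in the result was not tested.

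The small heat shock genes lie side by side on 3L, and the genes around them were read in the RefSeq gene order. From Hsp67Bc to Hsp27 the table lists 9 genes, in the order Hsp67Bc, CG4456, Hsp22, CG4461, Hsp26, Hsp67Ba, asRNA:CR43481, Hsp23 and Hsp27. With 5 genes on each side, 13 probesets were tested and 3 passed, or 23.1%, against 0.551% of all tested probesets. Those 3 are the first Hsp22/CG4456 probeset and the probesets of CG4080 and Cpr67B, and the last of these lie on the Hsp27 side. The arm as a whole had 28 of 1764 genes past the threshold (1.59%), the cluster was chosen with these results known, and the share is given as a description.

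**Figure D2:**
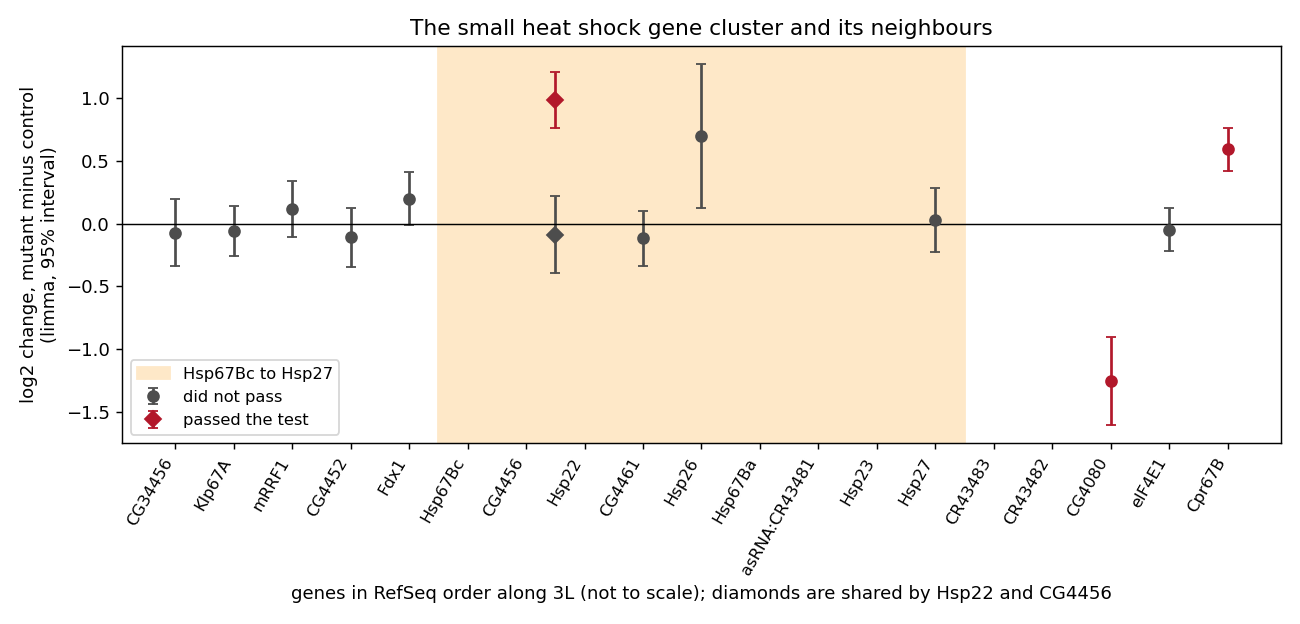
Log2 change, mutant minus control, with 95% intervals from limma, for genes in RefSeq order along 3L around the small heat shock genes (shaded); diamonds between CG4456 and Hsp22 are the shared probesets, red marks an adjusted p under 0.05 and a gene with no point was not analysed here. CG4080 (-1.25) fell, the first shared probeset (0.99) and Cpr67B (0.59) rose, and Hsp27, between them, had 0.03.

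CG4080, the first protein-coding gene beyond Hsp27, was read at 8.83, 8.48 and 8.56 in mutants and at 10.10, 9.90 and 9.63 in controls. The groups stood more than 1 log2 unit apart in their means, and the fall was 2.38-fold (log2 change -1.25, SE 0.15, limma adjusted p = 0.022). Cpr67B, a cuticle protein gene, was read at 12.01, 11.98 and 12.08 in mutants and at 11.49, 11.39 and 11.40 in controls, a 1.51-fold rise (limma adjusted p = 0.025). Between them, eIF4E1, a gene for a cap-binding translation factor, had -0.05 on the log2 scale (limma adjusted p = 0.868), so neighbouring genes moved in opposite directions or did not pass. CG4080 lost its call without mutant replicate 1, 2 or 3 or control replicate 2 (limma adjusted p between 0.0546 and 0.155), and Cpr67B without any array other than control replicate 1 (between 0.103 and 0.161).

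On the other side of the cluster nothing passed. Fdx1, a ferredoxin gene next to Hsp67Bc, had 7.62, 7.65 and 7.72 in mutants and 7.34, 7.47 and 7.59 in controls. These did not overlap, and such a separation with the mutants higher was seen for 7% of tested probesets. The change did not pass (log2 change 0.20, limma adjusted p = 0.572). The kinesin gene Klp67A, the mitochondrial ribosome recycling factor gene mRRF1, CG4452 and CG34456 had changes of -0.06, 0.12, -0.11 and -0.07. Inside the cluster CG4461, another small heat shock protein gene, was dim, with a mean of 4.76 in mutants and 4.88 in controls and a log2 change of -0.12 (limma adjusted p = 0.733).

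Of a list of 5 other small heat shock genes 3 were tested, CG4461 of the cluster and CG7409 and l(2)efl outside it, and none passed (limma), 0 of them at an unadjusted p under 0.05. CG7409 had a log2 change of -0.12, with an adjusted p of 0.823. The brightest was l(2)efl, a small heat shock protein gene known from muscle, with a mean of 13.51 in mutants and 13.50 in controls. Another l(2)efl probeset was too dim for the main filter and read 4.43, 5.04 and 5.37 in mutants, against 4.02, 3.79 and 3.99 in controls. Its groups did not overlap, and among tested probesets such a separation with the mutants higher was seen for 7%. With no filter its log2 change was 1.01 (limma adjusted p = 0.192), which did not pass. Its 2 bright probesets had changes of 0.01 and -0.02.

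The Hsp70 genes, the most strongly heat-induced genes of the fly, are near-identical copies, and the arrays read them through shared probesets. The probeset of Hsp70Aa and Hsp70Ab gave 4.23, 5.73 and 7.46 in mutants, against 6.16, 6.47 and 6.61 in controls. Mutant replicate 1 was the lowest and mutant replicate 3 the highest of the 6 arrays, a 9.42-fold range within the mutants. The log2 change was -0.61 with an SE of 0.73 (limma adjusted p = 0.828), and it was 0.18 without mutant replicate 1 and -1.44 without mutant replicate 3. The tested probeset of 4 Hsp70B copies gave 4.88, 5.10 and 6.07 in mutants and 4.62, 5.70 and 5.97 in controls (log2 change -0.08, limma adjusted p = 0.964). Within the mutants and within the controls its order over the arrays was that of Hsp70Aa/Hsp70Ab. The probeset that CG31343 shares with Hsp70Bc and Hsp70Bb was 11.18, 10.78 and 11.16 in mutants and 8.68, 11.53 and 11.23 in controls, with control replicate 1 far below the other arrays. Its change of 0.56 was -0.34 without that array and 1.09 without control replicate 2. The other 2 Hsp70B probesets were below the filter on level, with means between 2.96 and 4.42 in the 2 groups. Every probeset listed only under Hsp70B copies was thus far dimmer than the one shared with CG31343. The annotation does not tell which gene that shared probeset reads.

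**Figure D3:**
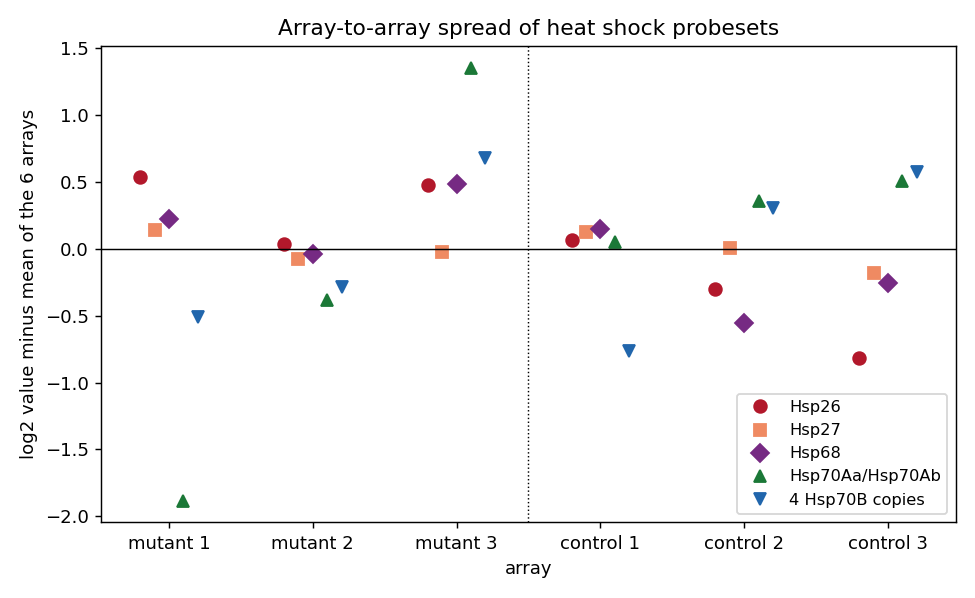
Log2 value on each array minus the mean of the 6 arrays for Hsp26, Hsp27, Hsp68 and the tested probesets of Hsp70Aa/Hsp70Ab and of 4 Hsp70B copies, with mutants left of the dotted line and controls right of it. The Hsp70 probesets are highest on mutant replicate 3, Hsp26 is lowest on control replicate 3 and Hsp68 on control replicate 2, and Hsp27 stays near 0.

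The spread of the heat shock probesets within groups differed widely. The pooled SD of Hsp70Aa/Hsp70Ab (1.16) was larger than that of 99.6% of tested probesets, and that of the 4 Hsp70B copies (0.67) larger than that of 98.0%. The probeset of CG31343/Hsp70Bc/Hsp70Bb (1.12), which need not read an Hsp70 gene, was as wide. Hsp26 and Hsp68 followed, and Hsp27, with 0.137, lay near the median. Mutant replicate 3, the array with the highest Hsp70Aa/Hsp70Ab value, also had the highest Hsp68 value. Hsp26 was highest on mutant replicate 1, where Hsp70Aa/Hsp70Ab was lowest.

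Constitutive chaperones of the Hsp70 and Hsp90 families did not pass either. Of 13 genes in the Hsp70 and Hsp110 list 5 were tested, with a median change of -0.02. Hsc70-4, the main cytosolic Hsp70 of unstressed cells, had 13.65, 13.67 and 13.59 in mutants and 13.81, 13.73 and 13.75 in controls. These did not overlap, and such a separation with the mutants lower was seen for 9.33% of tested probesets. The log2 change was -0.13 (limma adjusted p = 0.645). The mitochondrial Hsc70-5 had -0.04. Of the Hsp90 family, the mitochondrial Trap1 had -0.08 and Gp93 of the endoplasmic reticulum -0.004 (limma adjusted p = 0.741 and 0.990). The Trap1 groups did not overlap either, with mutant replicate 3 and control replicate 2 nearly level. The sign of the Gp93 value turned under some alternatives. Of 18 tested Hsp40 and co-chaperone genes 0 passed, and 0 had an unadjusted p under 0.05. The mean was higher in mutants for 14 of the 18 (median change 0.05), while 52.4% of all tested probesets had a lower one. The 2 with the smallest p were CG7130 (0.33) and the ubiquitin ligase gene STUB1 (0.18), both with a limma adjusted p = 0.617.

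The cytosolic chaperonin CCT, a ring of related subunits that folds actin and tubulin, had a lower mean in mutants for all 8 of its genes, and none passed. CCT7 had the smallest p, with 10.84, 10.81 and 10.78 in mutants and 11.10, 10.93 and 10.97 in controls (log2 change -0.19, SE 0.075, limma adjusted p = 0.530). For 6 of the 8 all mutant values lay below all control values, against 9.33% of all tested probesets, and the median change was -0.14. The changes ranged from -0.19 to -0.08, and a lower mean was seen for 52.4% of all tested probesets. Control replicate 1 was the highest array for 7 of the 8; without it all 8 means were still lower in mutants, 6 did not overlap and the median change was -0.094, against 14.9% of all tested probesets with no overlap in that direction. The genes share the same arrays and are not independent. Of the mitochondrial chaperonin list 2 of 5 were tested, CG11267 with 0.04 and Hsp60B with -0.02 (limma adjusted p = 0.919 and 0.969).

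**Figure D4:**
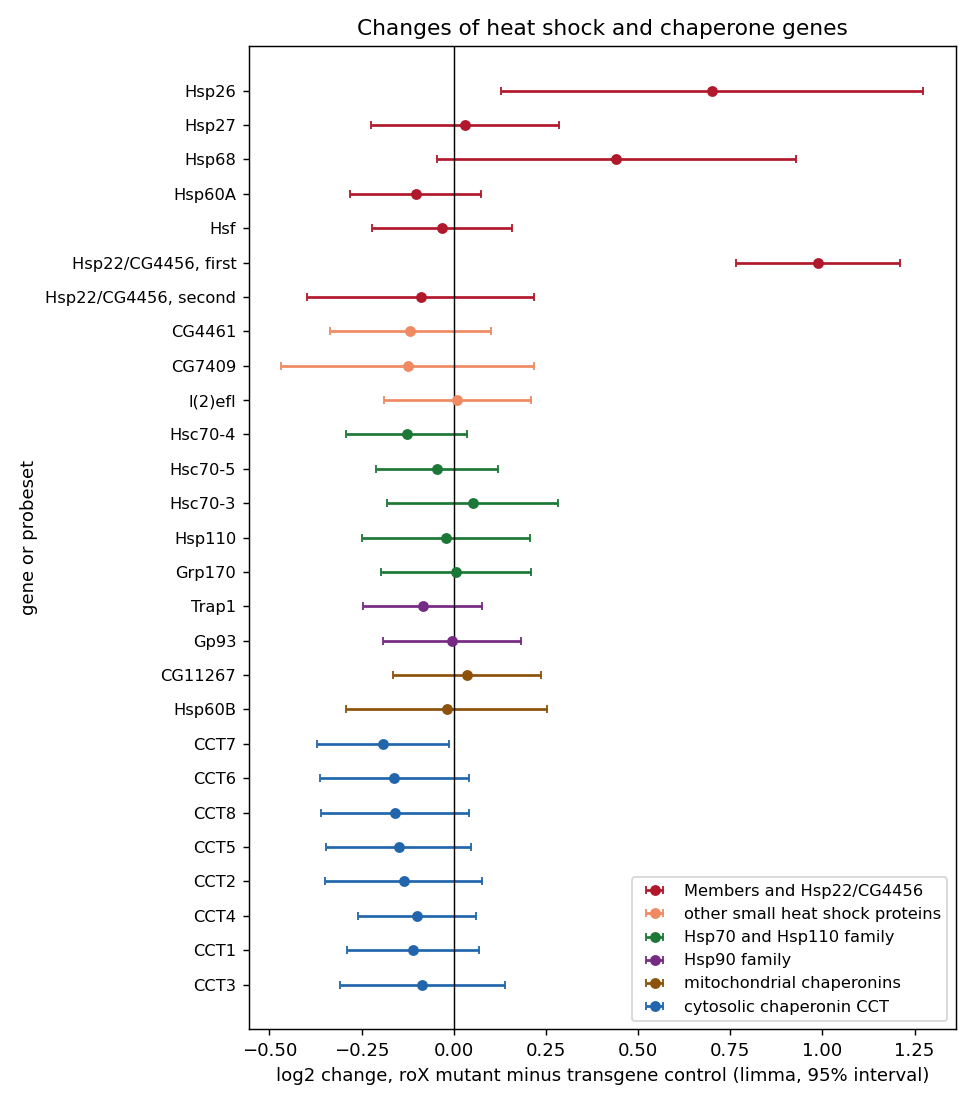
Log2 change, mutant minus control, with 95% intervals from limma, for the heat shock genes, the shared Hsp22/CG4456 probesets and tested chaperone genes. The chaperone lists drawn are the other small heat shock, Hsp70 and Hsp110, Hsp90, mitochondrial chaperonin and CCT genes. Hsp40 and co-chaperone genes are not drawn. The intervals of Hsp26 (0.13 to 1.27) and of the first shared probeset lie above 0, the other heat shock genes cross 0, and all 8 CCT genes have values below 0, of which CCT7 alone has an interval that leaves out 0.

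Genes whose products act at heat shock promoters were followed as a list of 16, of which 13 were tested and 0 passed (median change -0.07). Of these 1 had an unadjusted p under 0.05 (limma), against 9% of all tested probesets. Top1, the DNA topoisomerase gene, had -0.21 and the elongation factor gene Spt5 -0.18 (limma adjusted p = 0.533 and 0.648). The Spt5 change was -0.11 without mutant replicate 3 or control replicate 1. The groups did not overlap for 3 of the 13, Top1, Spt5 and Tbp, all with the mutants lower. Such a separation was seen for 9.33% of all tested probesets. Of 17 tested ecdysone response genes 0 passed, 2 at an unadjusted p under 0.05, against 9% of all tested probesets, with a median of -0.13. The mean was higher in mutants for 3 of the 17, MsrA among them. A lower mean was seen for 52.4% of all tested probesets. MsrA, an ecdysone-induced methionine sulphoxide reductase gene, had 11.04, 10.75 and 10.93 in mutants and 10.64, 10.23 and 10.22 in controls (log2 change 0.54, limma adjusted p = 0.282, and 0.045 with array weights). Cyp18a1, the enzyme gene that breaks ecdysone down, had -0.46 (limma adjusted p = 0.393). Of 13 tested stress genes outside the chaperones 0 passed, and 0 at an unadjusted p under 0.05, with the smallest p for the humoral stress gene TotC (-0.59, limma adjusted p = 0.652, and -0.29 without control replicate 1 or -0.30 without mutant replicate 1) and the kinase gene PEK (0.14).

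Hsp26 and Hsp27 together served as a pattern, the mean of their values centred over the 6 arrays, to which 8878 other genes were compared. The values were not scaled, so Hsp26, with a pooled SD of 0.37 against 0.137 for Hsp27, weighs more in the pattern. Cubn2, CCAP, CG30083, CG11902 and NKCC followed it most closely, with Pearson r between 0.961 and 0.982 over 6 arrays, none of them past the threshold (limma adjusted p between 0.566 and 0.629). The r values describe these arrays, and the closest of so many genes are high by selection.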

How the data were processed

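Gene expression was measured on 6 one-colour arrays, 3 of roX mutant and 3 of roX1 transgene control larvae. The deposited values are log2 expression values, made by the authors with RMA (background correction, normalization between arrays and 1 summary per probeset), per the labels' design text. The submitters' processing notes name the tool without a version. Present and absent calls, which the design text mentions, were not used here, and a filter on level took their place.

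Probesets were named through the platform annotation: 13647 had 1 gene symbol, 402 several and 4720 none listed. Of those with 1 symbol, 13544 were matched by gene number to the RefSeq table of Release 6 plus ISO1 MT, used for symbols, arms and gene order. The 183 control probesets and the dimmest 40% of the others by mean were left out, leaving 11262. In R 4.3.3, limma version 3.58.1 fitted them (lmFit and eBayes). Two-sided p-values were adjusted over all 11262 by Benjamini-Hochberg, the threshold was 0.05, and the fit was tested on simulated data. Genes in lists were read by their brightest tested probeset with 1 symbol. Single differences were compared by exact permutation in scipy 1.17.1. The number of arrays limits the precision, and the p-values measure the spread between RNA preparations.

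The members and lists were chosen with earlier results of these data known. Named are every member, its cluster with 5 genes on each side, up to 2 genes with the smallest p in each list, and the 5 genes most like the joint pattern of Hsp26 and Hsp27. That pattern was planned with Hsp22 and Hsp23 as well, which have no probeset of their own here. Promoter motifs were planned and not run. Of the marker and gene lists not described gene by gene, muscle, salivary gland, fat body, hemocyte, female germline and neuron genes had 0 genes past the threshold.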

Additional observations from a re-analysis of the deposited data

Results flagged for a closer look

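A probeset that the annotation gives to both Hsp22 and CG4456, and that therefore stands outside the genes read by a probeset of their own, had a signal above that of the controls on all 3 mutant arrays. Its log2 change was 0.99 (limma adjusted p = 0.0107), while the second probeset of the same 2 genes had -0.09.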

How the results depend on the processing

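None of the 5 heat shock genes passed the threshold under any of the 14 alternatives (lowest limma adjusted p = 0.131, for Hsp26 with array weights). The count of probesets past the threshold was 62 in the main fit. It was 27 with the dimmest 60% left out, 232 with array weights and 28 with the replicate block. When 1 array was left out it lay between 12 and 84. The cause of these shifts was not tested. The labels number the replicates of both groups and do not say whether same-numbered arrays were prepared together. Deviations of same-numbered arrays from their group means correlated at 0.053, -0.19 and 0.32. With so few arrays these values do not show a pairing and cannot exclude one. Under the block the first Hsp22/CG4456 probeset (limma adjusted p = 0.0544) and Cpr67B (0.114) did not pass.

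The direction of 12 named values, none past the threshold, changed under an alternative. Hsp27 had -0.016 after quantile normalization and -0.054 to 0.10 with 1 array left out, and Hsf 0.035 with array weights and -0.068 to 0.023. With 1 array left out, the second Hsp22/CG4456 probeset ran from -0.19 to 0.0092, Hsp70Aa/Hsp70Ab from -1.44 to 0.18, the 4 Hsp70B copies from -0.48 to 0.19, CG31343/Hsp70Bc/Hsp70Bb from -0.34 to 1.09 (-0.22 with array weights), CG34456 from -0.16 to 0.013, Gp93 from -0.052 to 0.037 (0.017 with arrays centred on their medians), CG11267 from -0.027 to 0.085, Hsp60B from -0.10 to 0.064 (0.0025 when centred) and Rbp9 from -0.23 to 0.025. Klp67A had 0.015 with array weights. The other 42 of 54 named values kept their direction. PPO2 (-1.34 with array weights, -1.24 without control replicate 1) and PPO1 (-1.20 with array weights) passed there and not with all arrays weighted equally.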
